A study of Mus musculus with 227 samples.

Results

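The genes described here are 10 heat shock chaperones, chosen by name out of 24388 genes in a table of single mouse skeletal cells. Of these, 6 were taken as inducible by heat (Hspa1a, Hspa1b, Dnajb1, Hsph1, Hsp90aa1 and Hspb1). The other 4 were taken as constitutive (Hspa8, Hsp90ab1, Dnaja1 and Hspe1). This division came from general knowledge and was not measured here. The mice were BL6 at postnatal day 3, and cells of their long bones were double sorted into 4 populations. Every gate required cells without CD45 and Ter-119 and with AlphaV. The mSSC gate, for the skeletal stem cell of the study's title, took cells lacking Tie2, Thy, 6C3 and CD105 and carrying CD200. The CSP gate took cells lacking Tie2, Thy and 6C3 and carrying CD105. The THY+ gate took cells lacking Tie2 and 6C3 with Thy and CD105, and the 6C3+ gate took cells without Thy that carried 6C3 and CD105, with Tie2 not named. The series compares these populations at the level of single transcriptomes, and the comparison made here asks how the chaperones are divided among the populations and how the inducible members stand against the constitutive ones in each cell.

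Heat shock proteins hold unfolded proteins, pass them between chaperone machines and refold them with energy from ATP. Constitutive members such as Hspa8 and Hsp90ab1 serve protein folding in unstressed cells, while the inducible genes are switched on by heat shock factor 1, which binds repeats of the unit GAA and its complement TTC in their promoters. Cartilage and bone cells secrete large amounts of matrix protein, whose folding in the endoplasmic reticulum uses a chaperone set of its own.

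The promoters of the members are shown first, with the repeats of that unit. In RefSeq's annotation of the GRCm38.p6 build, 7 of the 10 members matched an entry with a window from 250 bases before to 50 bases after the start; Hspa8, Hsp90aa1 and Hsp90ab1 did not. The 250 bases before the start are printed 5′ to 3′ on the gene's strand for 4 members, the near-identical pair Hspa1a (chr17:34972157-34972406, minus strand) and Hspa1b (chr17:34959239-34959488, minus strand), then Hspb1 (chr5:135887669-135887918, plus strand) and Hspe1 (chr1:55087898-55088147, plus strand). Capitals mark GAA and TTC in either order separated by any 2 bases, called here the 2-unit element.
Hspa1a: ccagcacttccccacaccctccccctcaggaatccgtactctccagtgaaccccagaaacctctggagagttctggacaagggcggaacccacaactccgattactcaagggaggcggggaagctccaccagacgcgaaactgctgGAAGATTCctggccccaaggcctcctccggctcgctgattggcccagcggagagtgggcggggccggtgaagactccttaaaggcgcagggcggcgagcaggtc
Hspa1b: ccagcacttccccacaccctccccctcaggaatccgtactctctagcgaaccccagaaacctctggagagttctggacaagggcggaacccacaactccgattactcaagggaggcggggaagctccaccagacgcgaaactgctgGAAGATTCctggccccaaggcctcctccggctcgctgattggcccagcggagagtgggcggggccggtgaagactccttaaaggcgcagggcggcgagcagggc
Hspb1: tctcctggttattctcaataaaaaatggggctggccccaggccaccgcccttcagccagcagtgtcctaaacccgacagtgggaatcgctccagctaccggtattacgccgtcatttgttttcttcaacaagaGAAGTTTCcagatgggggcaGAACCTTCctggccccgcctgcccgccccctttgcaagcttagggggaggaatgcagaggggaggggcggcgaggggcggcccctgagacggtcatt
Hspe1: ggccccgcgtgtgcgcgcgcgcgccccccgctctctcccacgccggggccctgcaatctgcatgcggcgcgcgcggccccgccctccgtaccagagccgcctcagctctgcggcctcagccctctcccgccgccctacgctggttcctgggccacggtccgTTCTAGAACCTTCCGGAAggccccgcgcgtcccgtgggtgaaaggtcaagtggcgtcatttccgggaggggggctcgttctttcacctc

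Hspa1a and Hspa1b each held 1 such element, at the same place, and their 250 upstream bases were 98.8% identical, with 3 differing bases. Hspb1 held a pair of separate elements, and in Hspe1 the elements overlapped to form a run of 4 units. A 3-unit element, in which GAA and TTC alternate 3 times with any 2 bases between neighbours, was searched on both strands, and each match to it also contains 2-unit elements. It was found in 2 of the 7 members with a window, Hspe1 and Hsph1, against 0.662% of the 27025 genes with windows. The Hsph1 match, TTCTGGAAAGTTC, lay at +37 to +49 from one annotated start and at +16 to +28 from the other. The 2-unit element was found in at least 1 window of 6 of the 7 members, all but Dnajb1, against 17% of genes. Dnaja1 held it in 1 of its 3 windows. The elements did not follow the classes, since Hspe1 and Dnaja1, taken as constitutive, held them. Dnajb1, taken as inducible, held neither element in its windows. Among common promoter letters, TATAAA was found in 0 of the 7 members and in 15.7% of genes, and CCAAT in 5 of the 7 members (Hspa1a, Hspa1b, Dnajb1, Hsph1 and Dnaja1) and in 41.1% of genes, both searched on either strand. These are matches of letters in a fixed window and not measured binding sites.

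On mm10, which is the same assembly, Hspa1a (34969190 to 34972156) and Hspa1b (34956436 to 34959238) lie on the minus strand of chromosome 17 with starts 12.9 kb apart. Their coding sequences were 99.4% identical, with 8 mismatches and 3 gap bases, and shared an unbroken run of 638 bases. How the authors' counting divided reads between them is not given in the sources used here, so the split between these genes is uncertain. Hsp90aa1 and Hsp90ab1 were 75.7% identical and Hspa1a and Hspa8 74.1%, with identical runs of at most 33 and 22 bases. Hspe1 (55088132 to 55091307, plus strand of chromosome 1) overlaps the start of Hspd1 (55077835 to 55088243, minus strand), which encodes its mitochondrial partner. Dnajb1 lies on chromosome 8 (83608193 to 83612653, plus strand) and Hspb1 on chromosome 5 (135887919 to 135889563, plus strand).

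FPKM values count fragments per kilobase of transcript, relative to all mapped fragments, so levels of different genes can be compared per length. Depth in reads is unknown. A gene was called detected in a cell at an FPKM of at least 1, and the main set kept cells with at least 1000 detected genes: 37 of 37 mSSC, 11 of 26 CSP, 43 of 72 THY+ and 34 of 92 6C3+ cells. Median gene numbers in it ran from 2534 (mSSC) to 3033 (CSP). Each library is 1 cell and no animal is named, so each population counts as 1 sample, differences have no replicate check, and no p-value is given. Ranges in parentheses after a share of cells are its 95% interval (Clopper-Pearson, exact), for counting error alone. The median share of FPKM held by spike-in RNA was 0.00117% in mSSC, 0.000945% in CSP, 20.8% in THY+ and 18.9% in 6C3+ cells. The median FPKM sum of the mouse genes was 906237 in mSSC, 578425 in CSP, 752613 in THY+ and 366748 in 6C3+ cells. These sums did not follow the order of the spike-in shares. Differences are therefore given for FPKM as deposited and for FPKM rescaled so that the mouse genes of each cell sum to 1000000. By their indices mSSC and CSP cells shared a plate, while THY+ and 6C3+ cells each had another, so population cannot be told apart from plate except between mSSC and CSP.

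The gates were compared with the transcripts of their antigens. Thy1 was detected in 9 of 43 THY+ cells and in 0 cells of the other populations, and Enpep, which encodes 6C3, in 9 of 34 6C3+ and 3 of 43 THY+ cells. Cd200 went against the labels: it was detected in 9 of 11 CSP cells (81.8%, 48.2 to 97.7) and 8 of 37 mSSC cells (21.6%, 9.83 to 38.2). Eng, the gene of CD105, was found in 8 of 37 mSSC cells and in 0 of 11 CSP cells. The directions given between these populations rest on the labels. Of 8 chondrocyte genes all were detected in mSSC, CSP and THY+ cells and 7 in 6C3+ cells, with median summed FPKM of 39165 in mSSC, 33918 in CSP, 512 in THY+ and 2106 in 6C3+ cells. For 7 osteoblast genes the medians were 11.2, 438, 4967 and 3027, for 6 fibroblast and periosteal genes 3188, 1981, 7493 and 5337, and for 6 pericyte and smooth muscle genes 0.333, 0, 74.6 and 9.05, in the same order. The osteoblast sums of THY+ and 6C3+ cells were almost all Col1a1 (medians 4966 and 2663). Other genes of that list were found most often in CSP: Sp7 in 4 of 11 cells against 2 of 37 mSSC, 0 of 43 THY+ and 1 of 34 6C3+ cells, and Runx2 in 7 of 11 against 5 of 37, 9 of 43 and 4 of 34. Pecam1, of the 6 endothelial genes, and Ptprc, of the 7 blood genes, were detected in no cell of the main set. The median sums of both lists were 0 in every population, but single cells held other genes of the lists. The highest endothelial sum was 93.7 in 6C3+, 14.1 in THY+ and 0 in mSSC and CSP cells. The highest blood sum was 85.1 in mSSC, 64.6 in THY+, 4.69 in 6C3+ and 0 in CSP cells. Of the 5 skeletal muscle genes, whose median sums were 1.99, 0, 3.02 and 0, Myod1, Myf5 and Pax7 were detected in none of these cells. Acta1 was detected in 19 of 37 mSSC, 5 of 11 CSP, 17 of 43 THY+ and 6 of 34 6C3+ cells, and Des in 1, 2, 11 and 2 cells.

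Hspa8 and Hsp90ab1 were among the most abundant transcripts of every population. Hspa8 encodes the constitutive cytosolic HSP70, which also strips clathrin from vesicles. It was detected in 37 of 37 mSSC cells with FPKM from 1.13 to 10710 (median 2703), in 11 of 11 CSP cells from 20.7 to 5023 (median 1137), in 42 of 43 THY+ cells from 0 to 6867 (median 1079) and in 33 of 34 6C3+ cells from 0 to 2274 (median 408). By its mean log2(FPKM + 1) it ranked 28, 52, 44 and 56 among all genes of these populations. The order of the medians was mSSC, CSP, THY+ and 6C3+, and the interquartile ranges of neighbours in that order overlapped. Those of mSSC and 6C3+ cells did not. After rescaling the medians were 3225, 2015, 1202 and 1385, so mSSC stayed highest while THY+ and 6C3+ changed places.

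Hsp90ab1, the constitutive cytosolic HSP90, was detected in every cell of the main set. Its FPKM ran from 30.2 to 9235 in mSSC (median 1558), 40.6 to 5310 in CSP (median 688), 3.81 to 6466 in THY+ (median 863) and 19.8 to 2404 in 6C3+ cells (median 420). It ranked 54, 96, 34 and 48 by mean level. After rescaling the medians of 1815, 902, 1321 and 1374 put CSP lowest, with overlapping interquartile ranges in all 4 populations.

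Dnaja1, a J-domain protein that hands clients to HSP70, was lower and less even. It was detected in 32 of 37 mSSC cells (median 126.7, highest 1029), 6 of 11 CSP cells (median 3.42, highest 283.8), 36 of 43 THY+ cells (median 32.4, highest 387) and 29 of 34 6C3+ cells (median 18, highest 103.2), with a lowest value of 0 in each. CSP was the lowest on both scales, with a rescaled median of 7.35 against 39 to 138.8 elsewhere, yet the interquartile ranges overlapped. Hspe1, the lid of the mitochondrial HSP60 chamber, had another order. Its median was highest in CSP (349, detected in 10 of 11 cells), followed by THY+ (113.7, 31 of 43), mSSC (98.5, 30 of 37) and 6C3+ (24.4, 23 of 34), but the highest single values of 5677 and 2630 were in mSSC and THY+ cells. The rescaled medians were 502.5 in CSP, 172.5 in mSSC, 137.9 in 6C3+ and 101.3 in THY+, which put THY+ lowest.

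**Figure D1:**
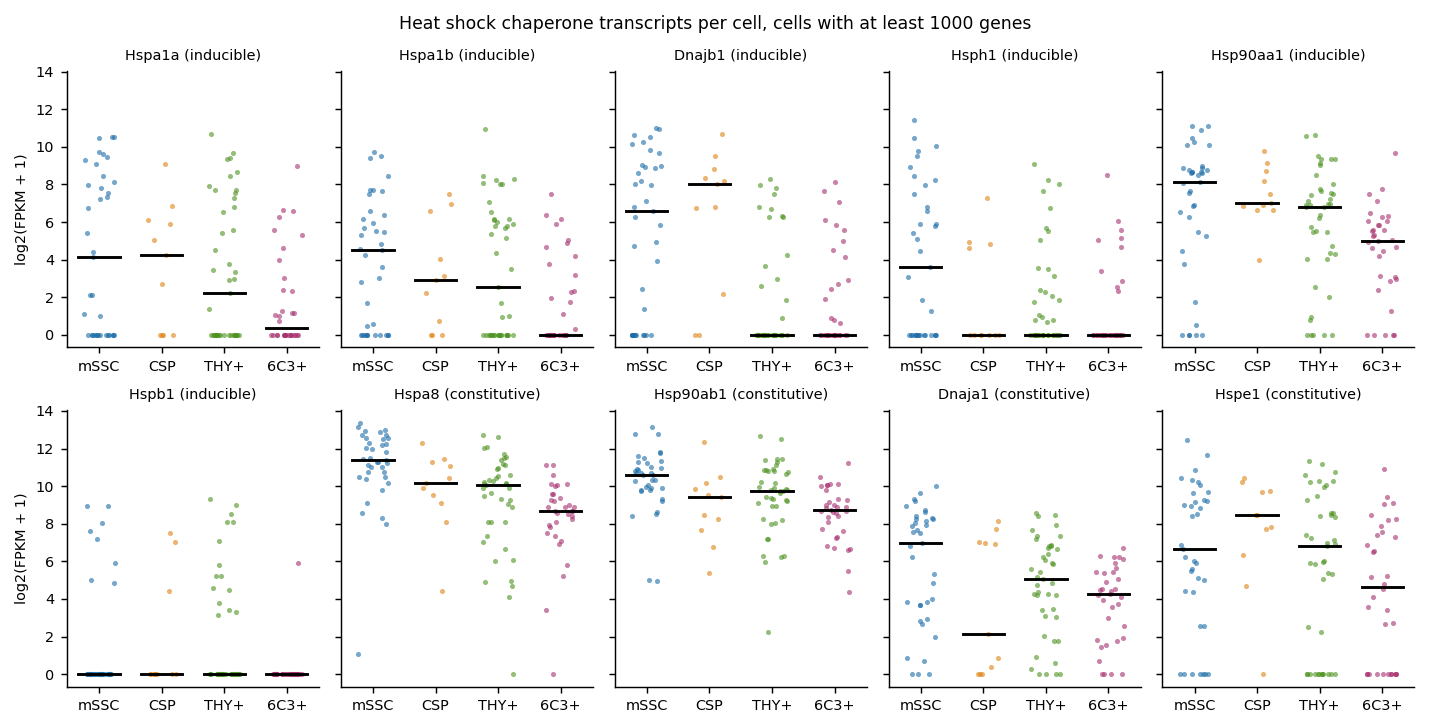
FPKM of the 10 chaperones in each cell with at least 1000 detected genes, 1 point per cell, on a log2(FPKM + 1) axis, with populations side by side and a bar at the median. Hspa8 and Hsp90ab1 lie high in nearly every cell, whereas Hspa1a spreads from 0 to 1498 in mSSC and to 1669 in THY+ cells.

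Among inducible members, Dnajb1 differed most between populations. Dnajb1 encodes the stress-responsive J-domain partner of HSP70. It was detected in 26 of 37 mSSC cells (70.3%, 53 to 84.1) and 9 of 11 CSP cells (81.8%, 48.2 to 97.7). The shares were lower elsewhere, with 14 of 43 cells (32.6%, 19.1 to 48.5) in THY+ and 13 of 34 (38.2%, 22.2 to 56.4) in 6C3+. Its FPKM had a median of 95.6 and a highest value of 2092 in mSSC, 260 and 1650 in CSP, 0 and 307 in THY+, and 0 and 276.8 in 6C3+ cells, with a lowest value of 0 in each. The interval of mSSC lay above that of THY+ and overlapped that of 6C3+, and the interquartile range of CSP (55.5 to 388) lay above those of THY+ (0 to 9.38) and 6C3+ cells (0 to 14.1).

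Within the THY+ plate Dnajb1 also moved with the index row. In the first index row, whose 9 THY+ cells had a median spike-in share of 1.06%, it was detected in 7 of 9 cells (77.8%, 40 to 97.2). In the other rows, at a median spike-in share of 24.5%, it was detected in 7 of 34 cells (20.6%, 8.7 to 37.9). Median gene numbers were 3033 and 2818. Other members were also higher in the first row: Hspa1a was detected in 7 of 9 against 16 of 34 cells, Hsph1 in 6 of 9 against 11 of 34, and the median of Hspa8 was 1995 against 719.2. In 6C3+ cells the first row held 4 cells, 1 of which had Dnajb1 detected, against 12 of 30 in the other rows. The part of the index row and spike-in share in the difference between populations was not tested, and neither was that of the chondrocyte genes, whose summed level was also higher in mSSC and CSP cells.

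Hspa1a and Hspa1b encode the strictly inducible cytosolic HSP70 and were detected in similar numbers of cells. Hspa1a was detected in 23 of 37 mSSC cells (62.2%, 44.8 to 77.5; median 16.4, highest 1498), 7 of 11 CSP cells (63.6%, 30.8 to 89.1; median 17.9, highest 545), 23 of 43 THY+ cells (53.5%, 37.7 to 68.8; median 3.76, highest 1669) and 16 of 34 6C3+ cells (47.1%, 29.8 to 64.9; median 0.346, highest 499). Hspa1b was detected in 24, 7, 24 and 15 cells of these populations, with medians of 21.6, 6.55, 4.81 and 0 and highest values of 836, 180, 2001 and 176.1. The shares overlapped in all 4 populations for both genes, and every population held cells at 0 and cells above 100. In the cells with each gene detected, the median was 224.3 for Hspa1a and 55.05 for Hspa1b in mSSC, and 58 and 15.4 in CSP. Summed over both genes, which does not depend on how reads were split, the median FPKM was 96.9 in mSSC, 35.8 in CSP, 19.8 in THY+ and 1.33 in 6C3+ cells.

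Hsp90aa1, the inducible HSP90, was the most widely detected inducible member. It was found in 31 of 37 mSSC cells (median 275.1, highest 2242), 11 of 11 CSP cells (15.1 to 868, median 129.2), 36 of 43 THY+ cells (median 110, highest 1561) and 29 of 34 6C3+ cells (median 31.2, highest 829). Its interquartile range in CSP (105.9 to 354) lay above that in 6C3+ cells (7.0 to 63.3), and the other pairs overlapped. Hsph1, a nucleotide exchange factor of HSP70, was detected in 22 of 37 mSSC cells (median 11.2, highest 2789) and had a median of 0 elsewhere, with 4 of 11 CSP, 17 of 43 THY+ and 10 of 34 6C3+ cells.

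Hspb1, a small heat shock protein that holds unfolded clients without ATP, was the rarest member in mSSC, CSP and 6C3+ cells, while in THY+ cells Dnajb1 was detected in 1 cell fewer. It was detected in 8 of 37 mSSC cells (21.6%, 9.83 to 38.2; highest 498), 3 of 11 CSP cells (27.3%, 6.02 to 61; highest 180), 15 of 43 cells of THY+ (34.9%, 21 to 50.9; highest 630) and 1 of 34 6C3+ cells (2.94%, 0.0744 to 15.3), at an FPKM of 60.1 in that cell. The intervals of THY+ and 6C3+ cells did not overlap. Without the first index row the THY+ share was 11 of 34 (32.4%, 17.4 to 50.5) and that of 6C3+ cells 1 of 30 (3.33%, 0.0844 to 17.2).

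**Figure D2:**
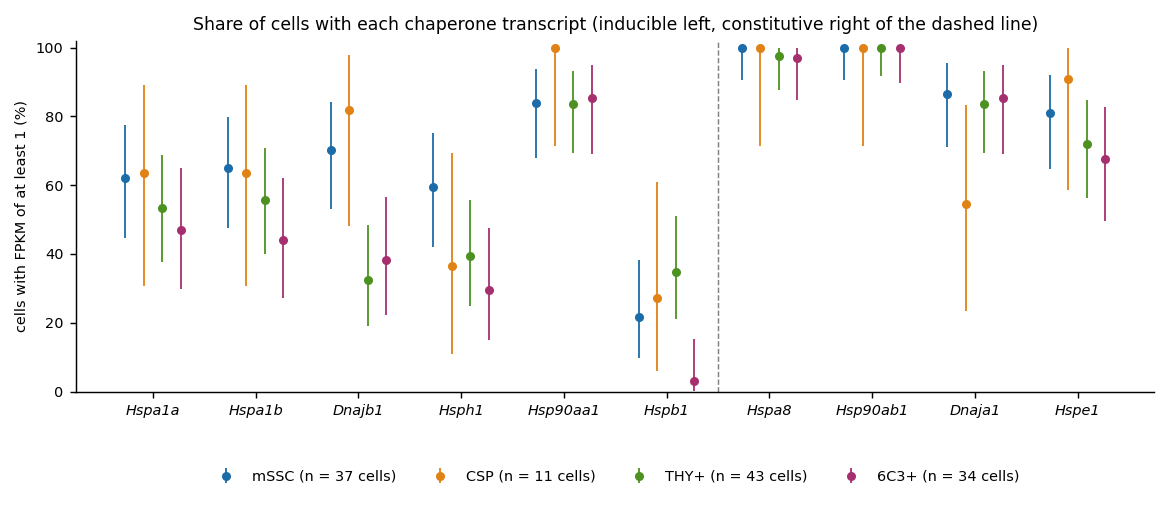
Share of cells of each population with each chaperone detected at an FPKM of at least 1, in percent, for cells with at least 1000 genes, with exact 95% binomial intervals as bars. Dnajb1 is detected in 70.3% of mSSC and 81.8% of CSP cells against 32.6% of THY+ and 38.2% of 6C3+ cells, and Hspb1 in 2.94% of 6C3+ cells.

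Differences between populations were taken as differences of mean log2(FPKM + 1), over the genes that 10% or more of the cells of either population had detected, and a difference of at least 1 in size, which is 2-fold on that scale, was counted. The 10 members passed this filter in each of the 6 pairs. The pairs share populations, so their values are given side by side and are not independent.

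Against mSSC cells, 6C3+ cells had all 10 members lower by at least 1, against a background of 13.7% of the genes tested, and 0 members higher (4.57% of genes). The differences ran from -3.50 for Dnajb1 to -1.35 for Hspb1, with a median over members of -2.21 against -0.13 over all genes tested. Housekeeping genes had lower mean log2(FPKM + 1) in 6C3+ cells too. Actb stood at 11.5 against 13.3 in mSSC, Eef1a1 at 10.5 against 12.8 and Gapdh at 4.53 against 7.04. Ppia stood at 9.67 against 10.4, Hprt at 2.86 against 3.73 and Tbp at 0.475 against 1.33. The part of a general drop in level in the member differences was not tested. Rescaling shifted the median of all genes by 0.38 in this pair. The shift was 0.14 for CSP against mSSC, and 0.28 and 0.29 for 6C3+ against CSP and THY+. In 6C3+ against mSSC the median over members moved further, from -2.21 to -1.31. Hsp90ab1 went from -1.80 to -0.23, whereas Hspb1 went from -1.35 to -1.36. After rescaling 7 members were lower (6.23% of genes) and 0 higher (15% of genes). The lower ones were all 6 inducible members, from -2.82 for Dnajb1 to -1.07 for Hsp90aa1, and Hspa8 at -1.26. Hsp90ab1 (-0.23), Dnaja1 (-0.85) and Hspe1 (-0.91) then lay within the threshold. Hspb1 passed the filter through mSSC alone, so its direction here was fixed by the filter, as it was against CSP and THY+. Without it 9 of the other 9 were lower as deposited and 6 after rescaling.

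THY+ cells had 4 members lower than mSSC cells (9.47% of genes) and 0 higher (9.96%). They were Dnajb1 (-3.59), Hsph1 (-2.12), Hspa8 (-1.92) and Dnaja1 (-1.12). After rescaling Dnajb1 (-3.51), Hsph1 (-1.74) and Hspa8 (-1.42) made 3 lower members (8.37% of genes), with 0 higher (13.2%). The median over members was -0.97 as deposited and -0.62 rescaled, against 0.13 and 0.22 over all genes.

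CSP and mSSC cells, which shared a plate, differed in both directions. As deposited 4 members were lower in CSP (10.3% of genes), Dnaja1 (-2.12), Hsph1 (-2.03), Hsp90ab1 (-1.36) and Hspa8 (-1.30), and Hspe1 (1.29) was the 1 higher member (15.8%). After rescaling Hsph1 (-1.85) and Dnaja1 (-1.82) were the 2 lower members (8.49% of genes), and Hspe1 (1.83), Dnajb1 (1.34) and Hsp90aa1 (1.32) the 3 higher ones (21.5%). These rescaled counts lie near the background shares. The direction of these 3 depended on the cells and the mean used. In cells with 2000 to 3000 genes, 3 of them CSP, the differences were -1.12 for Hspe1, -2.95 for Dnajb1 and -0.61 for Hsp90aa1. By the log2 of the mean FPKM they were -0.24, -0.17 and -0.84, and over all cells -2.49, -2.63 and -3.21.

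In THY+ against CSP cells 3 members were lower (17% of genes) and 0 higher (14%): Dnajb1 at -4.44, Hspe1 at -1.96 and Hsp90aa1 at -1.59. After rescaling the same 3 were lower (20% of genes), and Dnaja1 at 1.0 was the 1 higher member (15.9%). In 6C3+ against CSP cells 7 were lower (22.9% of genes) and 0 higher (7.75%), led by Dnajb1 (-4.35), Hspe1 (-3.20) and Hsp90aa1 (-2.95). After rescaling 6 were lower (18.2% of genes) and 0 higher (16.9%), since Hspa8 moved from -1.47 to -0.54. Without Hspb1 the counts were 6 and 5 of 9.

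Between the stromal gates 5 members were lower in 6C3+ than in THY+ cells (10.4% of genes) and 0 higher (1.85%): Hspb1 (-1.90), Hspa1b (-1.58), Hspa1a (-1.51), Hsp90aa1 (-1.37) and Hspe1 (-1.24). After rescaling Hspb1 (-2.09), Hspa1b (-1.27) and Hspa1a (-1.08) made 3 lower members (5.38% of genes), with 0 higher (8.62%). Without Hspb1, which passed the filter through THY+ alone, the counts were 4 and 2 of 9. Dnajb1, which was low in both, differed by 0.086 as deposited and by 0.69 after rescaling.

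**Figure D3:**
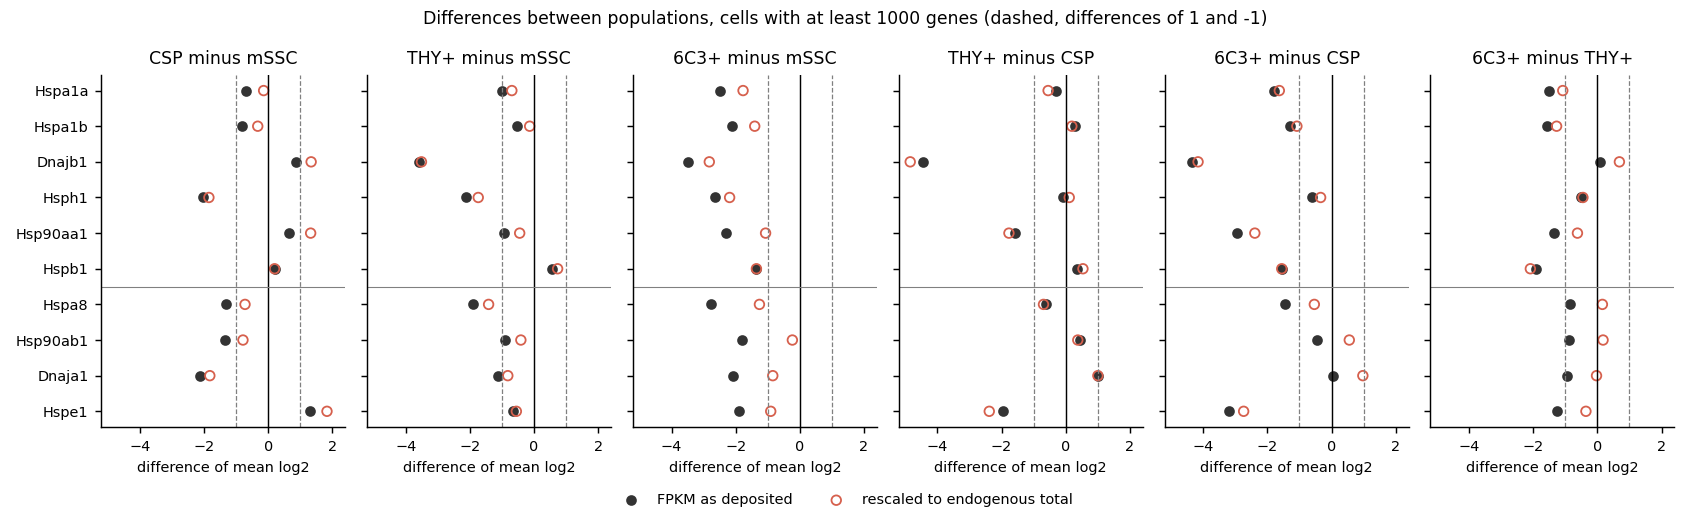
Differences of mean log2(FPKM + 1) between populations for the 10 chaperones in 6 pairs, as deposited and rescaled, for cells with at least 1000 genes; dashed lines mark differences of 1 and -1. In 6C3+ minus mSSC all 10 deposited values lie below -1, and 7 do after rescaling.

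Within single cells the mean of the inducible members lay below that of the constitutive ones, with few exceptions. This holds for the means of the classes and not for each gene: in mean log2(FPKM + 1) Hsp90aa1 lay above Dnaja1 in all 4 populations, at 6.74 against 5.77 in mSSC and 7.39 against 3.65 in CSP. The mean log2(FPKM + 1) of the 6 inducible members minus that of the 4 constitutive members had a median of -4.12 in mSSC (-8.87 to -0.28), -3.32 in CSP (-6.60 to -0.81), -4.47 in THY+ (-8.67 to 3.12) and -4.30 in 6C3+ cells (-7.70 to -0.93). The interquartile ranges overlapped in all 4 populations. The value was above 0 in 2 of 43 THY+ cells (4.65%, 0.568 to 15.8) and in 0 of 37 mSSC, 0 of 11 CSP and 0 of 34 6C3+ cells, which allows up to 9.49%, 28.5% and 10.3%. Both THY+ cells had spike-in shares far above the median of their population, 87.7% and 59.97%. The first had FPKM of 1669 for Hspa1a and 2001 for Hspa1b beside 30.4 for Hspa8, and 1879 detected genes. The other had 110 and 67.03 beside 16.1, and 1994 genes. The part of the spike-in share in these values was not tested.

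The highest mSSC cell, at -0.28, had every inducible member high while keeping high constitutive levels. Its FPKM were 1498 for Hspa1a, 836 for Hspa1b, 1957 for Dnajb1, 2789 for Hsph1, 2242 for Hsp90aa1 and 498 for Hspb1, beside 9053 for Hspa8 and 2866 for Hsp90ab1. It therefore held the highest mSSC values of Hspa1a, Hspa1b, Hsph1, Hsp90aa1 and Hspb1. The 6C3+ cell with the highest value, -0.93, had another pattern. In it 5 inducible members and Hspa8, Dnaja1 and Hspe1 were listed at 0, and Hsp90aa1 (24.1) and Hsp90ab1 (112.3) were the members above 0. Its spike-in share was 42.7%, against a median of 18.9% in 6C3+ cells, and the part of that share was not tested.

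By number of members, at least 4 of the 6 inducible genes were detected in 22 of 37 mSSC cells (59.5%, 42.1 to 75.2), in 8 of 11 (72.7%, 39 to 94) for CSP, 20 of 43 (46.5%, 31.2 to 62.3) for THY+ and 8 of 34 (23.5%, 10.7 to 41.2) for 6C3+. The intervals of mSSC and 6C3+ cells did not overlap. Their median gene numbers were 2534 and 2639, and their median FPKM sums of mouse genes 906237 and 366748. Their median spike-in shares were 0.00117% and 18.9%. The part of these and of the plate in the difference was not tested. All 4 constitutive members were detected in 26 of 37 mSSC, 6 of 11 CSP, 27 of 43 THY+ and 22 of 34 6C3+ cells, with overlapping intervals. In THY+ cells gene number went with these counts: cells with at least 4 inducible members had a median of 3197 genes and the others 2660.

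**Figure D4:**
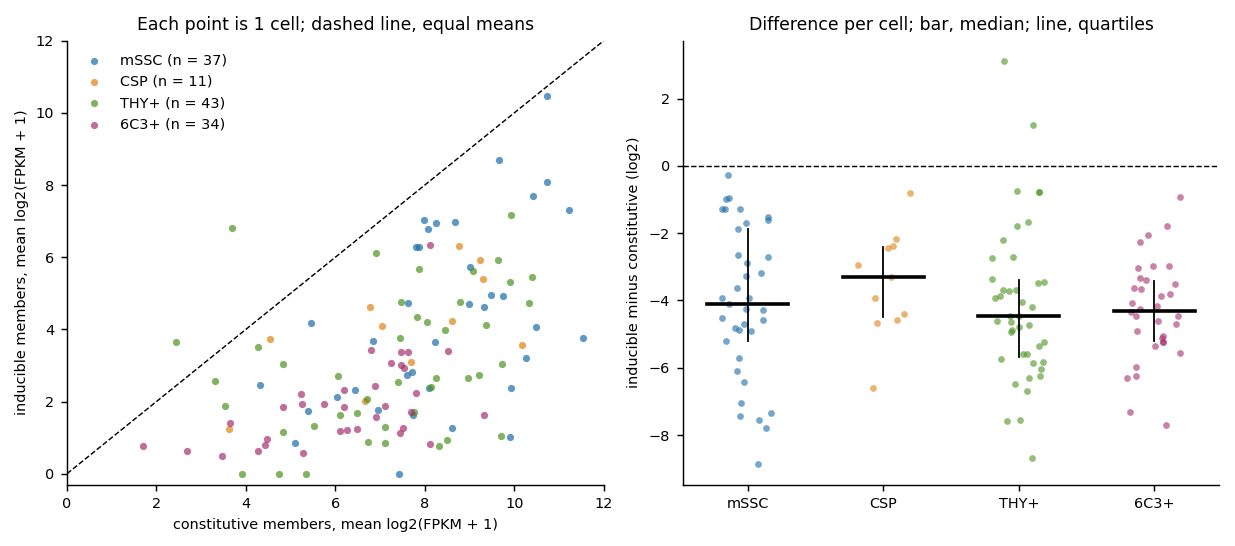
Inducible minus constitutive mean log2(FPKM + 1) in each cell with at least 1000 genes, 1 point per cell, by population, with a bar at the median and a line at 0. Medians lie between -4.47 and -3.32, and 2 THY+ cells lie above 0.

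In cells under 1000 genes, left out above, Hspa8 was no longer found more often than Hspa1a in THY+ and CSP. Among 29 such THY+ cells Hspa8 was detected in 13 (44.8%, 26.4 to 64.3) and Hspa1a also in 13, against 42 and 23 of the 43 cells above the threshold. Hsp90ab1 was detected in 23 of these 29 cells. Among 58 such 6C3+ cells Hsp90ab1 was detected in 27, Hsp90aa1 in 16, Hspa8 in 13 and Hspa1a in 8, and among 15 such CSP cells in 8, 2, 4 and 4. With these cells included the median difference between classes was -2.06 in THY+, -0.97 in 6C3+ and -1.0 in CSP cells.

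Members were then compared across the cells of a population by Spearman's rho, as a description; cells of a population share a plate and differ in depth and gene number. Hspa1a and Hspa1b gave the highest rho of any inducible pair in each population, 0.81 over 37 mSSC, 0.86 over 11 CSP, 0.76 over 43 THY+ and 0.73 over 34 6C3+ cells. Both were detected together in 21 mSSC, 7 CSP, 20 THY+ and 13 6C3+ cells, and 1 without the other in 5, 0, 7 and 5 cells. Reads shared between the near-identical sequences would also give such values, and their part was not tested. The other inducible pairs had lower values. The median over 15 inducible pairs was 0.35 in mSSC, 0.074 in CSP, 0.21 in THY+ and 0.0089 in 6C3+ cells. Medians over all pairs of genes found in 25% or more of cells were 0.053, 0.14, 0.14 and 0.093. These sets are not alike, since Hspb1, detected in 21.6% of mSSC and 2.94% of 6C3+ cells, is among the inducible pairs. The 6C3+ median is the value of Hsp90aa1 with Hspb1, and the CSP median that of Hsph1 with Hspb1. The 6 constitutive pairs had medians of 0.32, 0.64, 0.42 and 0.39, but after rescaling 0.017, 0.44, 0.16 and 0.22, and with gene number held constant by partial correlation 0.32, 0.048, 0.28 and 0.32. In CSP cells the constitutive mean followed gene number at a rho of 0.88. Hspa8 and its partner Dnaja1 gave 0.80 in mSSC cells and 0.27, 0.42 and 0.59 in CSP, THY+ and 6C3+ cells. Hspa8 and Hsp90ab1 gave 0.36, 0.89, 0.65 and 0.52 as deposited and 0.053, 0.66, 0.24 and 0.28 after rescaling, and the partial value in CSP was 0.34. Hspe1 and Hspd1, which share a promoter region, gave -0.073, 0.61, 0.42 and 0.22, and as partial correlation on gene number -0.073, -0.15, 0.38 and -0.017.

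**Figure D5:**
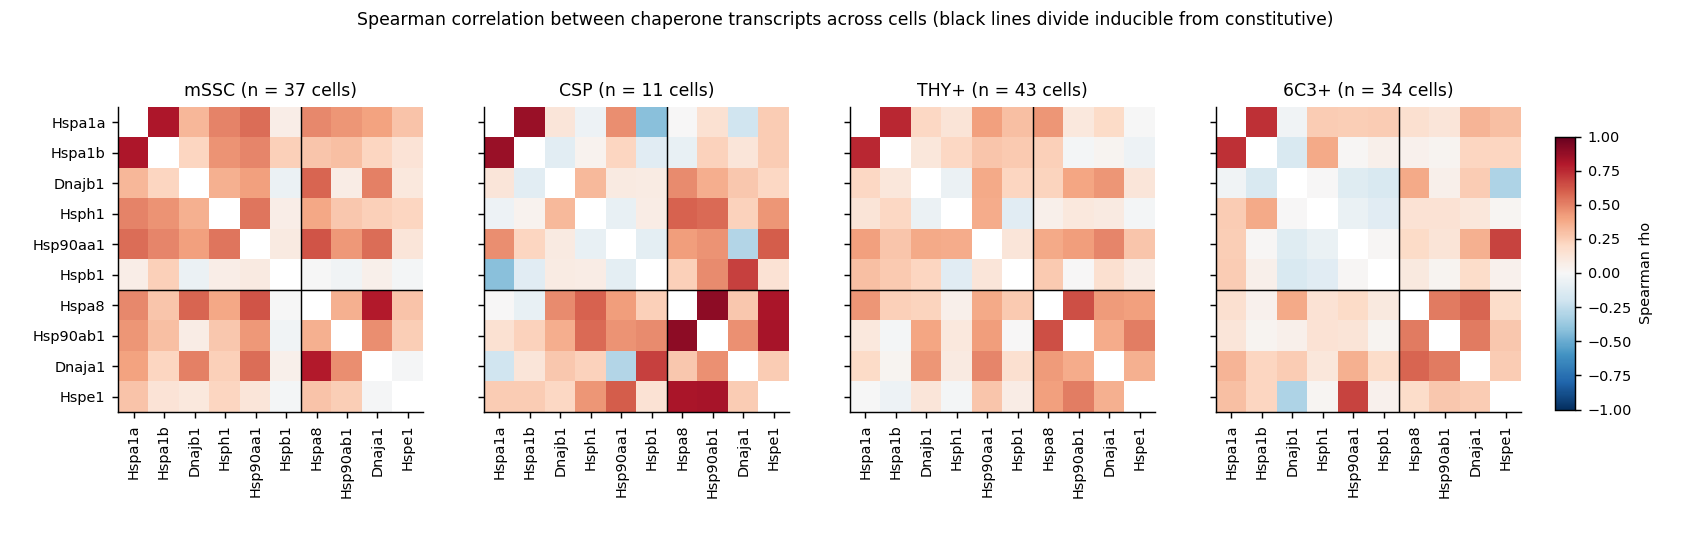
Spearman's rho between the 10 chaperones across the cells of each population with at least 1000 genes, 1 panel per population, coloured from -1 to 1. The pair Hspa1a and Hspa1b stands at 0.73 to 0.86 in each panel, and most other inducible pairs are paler.

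The genes whose level across cells was most like the mean of the inducible members were ranked among 2808 genes by rho averaged over mSSC, THY+ and 6C3+ cells. Among the 10 highest were Egr1 (0.42), Pcnp (0.42), Tbca (0.41), Atf3 (0.41), Slc29a1 (0.41), Ubb (0.41), Vbp1 (0.40), Arl4a (0.40) and Nfkbia (0.40), against a median of 0.12 over all genes ranked and a 95th percentile of 0.29. Egr1 and Atf3 are immediate early transcription factors, and Vbp1 is a subunit of prefoldin. With rescaled values Vbp1 ranked 1, and Ubb was no longer among the 100 highest. In CSP cells, which the ranking did not use, 7 of these 9 genes had a rho above 0, from 0.13 to 0.56, and Tbca (-0.037) and Slc29a1 (-0.55) lay below. Over pairs of genes in the 11 CSP cells the median rho was 0.14 and the 95th percentile 0.64. The inducible mean there followed gene number at a rho of 0.54. The share of all ranked genes above 0 in CSP is not given, so these values are no check of the ranking.

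Other genes of the folding system were followed by 8 lists, counting members higher and lower by at least 1 in the same pairs, with the background shares given above. The heat shock factors and their regulators (4 genes, 3 passing the filter) had 0 higher and 0 lower in CSP, THY+ and 6C3+ cells against mSSC, and 1 higher in 6C3+ after rescaling. Hsbp1, a binding protein of heat shock factor 1, had median FPKM of 36.1 in mSSC, 93.9 in CSP, 141.2 in THY+ and 39.6 in 6C3+ cells. Of 12 other targets of the factor 8 passed the filter against mSSC, with 2 higher and 2 lower in CSP, 2 higher and 3 lower in THY+, and 1 higher and 2 lower in 6C3+ cells. Ubb, which encodes polyubiquitin, had median FPKM of 7434 in mSSC, 4109 in CSP, 4060 in THY+ and 1760 in 6C3+ cells. Serpinh1, the collagen chaperone HSP47, had another order, 87.1, 258, 137.2 and 57.3, highest in CSP.

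Of 15 other genes of the HSP70 system 13 passed the filter, with 3 higher and 3 lower in CSP, 0 and 2 in THY+, and 0 and 2 in 6C3+ cells against mSSC. After rescaling the 6C3+ count was 3 higher and 0 lower. St13, which stabilises HSP70 bound to clients, was detected in 8 of 11 CSP cells against 14 of 37 mSSC, 18 of 43 THY+ and 9 of 34 6C3+ cells. Of 9 HSP90 cochaperones 1 was higher and 2 lower in CSP, 0 and 3 in THY+, and 0 and 3 in 6C3+ cells, where rescaling left 0 and 2. Ptges3, the cochaperone p23, had medians of 1443 in mSSC, 685 in CSP, 926 in THY+ and 362 in 6C3+ cells. This is the order of Hsp90ab1 as deposited. After rescaling the mean log2 of Ptges3 was 10.2, 9.60, 9.01 and 9.78, with THY+ lowest, whereas the rescaled medians of Hsp90ab1 put CSP lowest. Fkbp4 was detected in 6 of 11 CSP cells and in 12 of 37, 12 of 43 and 13 of 34 cells elsewhere. Among 8 mitochondrial chaperones 1 was higher in CSP and 0 lower, 0 and 0 in THY+, and 0 and 3 in 6C3+ cells, where Hspd1 had a median of 0 against 13.3 in mSSC. After rescaling that count was 1 and 1.

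The endoplasmic reticulum list of 16 genes holds chaperones and also Manf and the transcription factors Xbp1, Ddit3 and Atf4. Its genes were more often higher than lower in CSP against mSSC cells of the main set. Against mSSC 8 were higher and 3 lower, with a median difference of 1.02 as deposited and 1.5 after rescaling (10 higher, 1 lower), but over all cells the median was -2.46. Pdia6, a disulfide isomerase, had median FPKM of 793 in CSP, 570 in mSSC, 19.8 in THY+ and 27.5 in 6C3+ cells. Manf, a secreted factor of the unfolded protein response, was detected in 11 of 11 CSP cells (median 123.2) against 15 of 37 mSSC cells (median 0). Ddit3 went the other way, detected in 5 of 11 CSP cells (median 0) against 23 of 37 mSSC cells (median 17.4). In THY+ and 6C3+ cells 12 of the 16 were lower than in CSP and 0 higher, with medians of -1.40 and -1.75. After rescaling 12 were lower and 0 higher in THY+ (median -1.63), and 10 lower and 1 higher in 6C3+ cells (median -1.24). The 14 genes of the TRiC ring and prefoldin, which fold actin and tubulin, had 9 lower and 0 higher in 6C3+ against mSSC cells, a count that was 2 lower and 1 higher after rescaling. In THY+ cells 5 were lower and 0 higher, and in CSP cells 1 lower and 2 higher, or 1 and 5 after rescaling.

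Immediate early genes, which respond to many stimuli within minutes, were lower in 6C3+ and THY+ than in mSSC cells. Of 16 genes 15 were lower in 6C3+ cells and 0 higher, with a median difference of -2.27 as deposited and -1.24 after rescaling (9 lower). In THY+ cells 11 were lower and 1 higher (median -2.44), and in CSP cells 8 lower and 0 higher (median -0.95), which became 4 lower and 2 higher after rescaling (median -0.53). Atf3 had median FPKM of 858 in mSSC, 7.36 in CSP, 4.2 in THY+ and 2.92 in 6C3+ cells, and Btg2 had 1186, 206, 24.2 and 35.2.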

How the data were processed

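Single cells sorted from long bones were captured on the C1 platform, and SMARTer cDNA with ERCC spike-ins was made into Nextera XT libraries, per the labels' protocols. The values are FPKM as deposited by the authors in 1 table of 24388 genes and 92 spike-ins. Per the submitters' processing notes the build was mm10 and SAMtools was used; of the aligner, the FPKM program and its annotation, the name is not given in the sources used here. The FPKM keep no read counts, so depth is unknown and no count model was used.

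From these values the mean log2(FPKM + 1) per population, its differences, detection at FPKM of at least 1, Spearman's rho and promoter matches were computed in Python 3.11.15 with numpy 2.4.6, pandas 2.3.3 and scipy 1.17.1. The calculation of differences was checked for sign on resampled mSSC cells, with 8-fold changes planted in genes found in most cells. That check does not cover 2-fold differences, rarely detected genes or populations with unlike totals. Promoters came from RefSeq (GRCm38.p6) and gene positions from GENCODE for mm10. A total of 0 columns lacked a sample. The members and lists were chosen with earlier results of these data known. Beside the members, the text names up to 4 genes of each list with the widest range of population means and genes among the 10 most like the inducible mean, 1 of which is not reported here; a few were picked from these after their values were seen.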

Additional observations from a re-analysis of the deposited data

How the results depend on the processing

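Alternatives were pseudocounts of 0.1 and 10, rescaled FPKM, all cells, at least 2000 genes, 2000 to 3000 genes, the log2 of the mean FPKM, genes with mean FPKM of at least 1, and other make-ups of the classes. Leaving out the first index row, rescaling together with all cells or with at least 2000 genes, and leaving out cells above 0 were added after seeing the data. No make-up of the classes moved Hspe1 or Dnaja1 to the inducible members.

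The count of members lower in 6C3+ than in mSSC cells was 7 to 10 under each alternative of scale, pseudocount, mean, filter and cells run for it. Counts without Hspb1, also added later, stand in the report. For CSP minus mSSC the count of 4 became 2 rescaled, 9 with all cells, 2 with at least 2000 genes, 9 with all cells rescaled and 2 with at least 2000 genes rescaled; for THY+ minus mSSC the 4 became 9 with all cells and 8 without the first index row. For THY+ minus CSP the 3 became 1 with all cells and 1 by the log2 of the mean. For 6C3+ minus CSP the 7 became 4 with a pseudocount of 10, 4 with all cells and 3 with all cells rescaled. For 6C3+ minus THY+ the 5 became 3 rescaled, 8 with all cells, 8 with at least 2000 genes, 9 by the log2 of the mean, 3 without the first index row, 9 with all cells rescaled and 3 with at least 2000 genes rescaled.

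The median of inducible minus constitutive members moved beyond the spread between cells with all cells (CSP -1.0, THY+ -2.06, 6C3+ -0.97), with a pseudocount of 10 in 6C3+ (-2.70), and with Hspa1a and Hspa1b against Hspa8 alone (CSP -5.64, 6C3+ -6.75).

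Direction turned for Hspe1 in CSP minus mSSC with all cells (-2.49), all cells rescaled (-1.52), 2000 to 3000 genes (-1.12) and the log2 of the mean (-0.24), and in THY+ minus CSP with 2000 to 3000 genes (0.91). In CSP minus mSSC it turned under the same settings for Dnajb1 (-2.63, -1.98, -2.95 and -0.17) and Hsp90aa1 (-3.21, -2.37, -0.61 and -0.84). For Dnaja1 in THY+ minus CSP it turned by the log2 of the mean (-0.075). It turned for Hsp90aa1 in THY+ minus CSP with all cells (0.96) and all cells rescaled (1.6). With all cells it also turned for the median of the endoplasmic reticulum list in CSP minus mSSC (-2.46) and, in THY+ minus CSP, of the TRiC list (0.21) and the immediate early list (0.23). The cause was not tested.

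All cells include many with few genes detected, and 11 CSP cells limit every comparison with that population. No paired analysis was possible because each population is 1 sample with no replicate number.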
